A study of Rattus norvegicus with 18 samples.

Results

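The effect of a dopamine-depleting lesion on striatal DNA methylation was measured across all rats of the study, by setting the 9 lesioned striata against the 9 unlesioned (control) striata of the same animals. A pair was the lesioned and the control striatum that carried the same treatment and replicate number, so that the comparison used 18 of 18 samples. The animals were juvenile male Wistar rats whose left medial forebrain bundle was injected with 6-hydroxydopamine (6-OHDA) on postnatal day (PND) 21, so lesioned side and left hemisphere cannot be told apart. From PND 35 to 49, for 2 weeks, 3 rats were given saline (UNT), 3 rats L-DOPA with benserazide (L-DOPA) and 3 rats the same together with riluzole (L-DOPA + R), with a final treatment at PND 53. No unoperated rat entered the comparison, and the control striatum of a rat had received the same systemic treatment as its lesioned one.

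6-OHDA is taken up by catecholamine neurons and kills them, so that an injection into the medial forebrain bundle removes the dopamine fibres that run from the midbrain to the striatum of that side. The striatum integrates motor commands and its projection neurons read dopamine through receptors that raise or lower cyclic AMP. Methylation of cytosine in CpG dinucleotides is copied at cell division, is usually low in CpG-rich promoters and high elsewhere, and differs between neurons and glia. In bulk striatum, a change in the mix of cell types and a change in methylation within a cell therefore cannot be told apart.

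Methylation was read by reduced representation bisulfite sequencing (RRBS), in which the enzyme MspI enriches CpG-rich fragments. The 18 libraries held between 18480983 and 49146750 methylation calls. The number of calls did not differ detectably between the sides (exact permutation test, two-sided p = 0.566), nor did the methylation read on the unmethylated spike-in (0.302 to 0.928%, exact permutation p = 0.258) or on the methylated one (98.1 to 98.7%, exact permutation p = 0.570). After a minimum of 10 reads per cytosine, 292497 CpGs of chromosomes 1 to 20 were present in all 18 striata, with a median of 34 reads per CpG and striatum. In this set 39.1% of CpGs had a mean methylation under 20%, 36.7% over 80% and 24.2% in between. The replicate numbers were checked on 522 CpGs whose level changed between rats in steps, as a genotype would make it. Each lesioned striatum correlated best with the control striatum of its own number, in 9 of 9 rats, with Pearson r between 0.774 and 0.948 across these CpGs against at most 0.641 for a striatum of another rat.

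The overall level of methylation did not differ detectably between the sides. The mean over the 292497 CpGs was 48.2% ± 0.979 (SD, n = 9) in control and 48.3% ± 0.750 (SD, n = 9) in lesioned striata. The difference within a rat, lesioned minus control, averaged 0.0807 percentage points ± 0.759 (SD, n = 9), with a 95% interval from -0.481 to 0.695 (exact permutation test over all sign flips, two-sided p = 0.730). It was below 0 in 5 rats and above 0 in 4. With CpGs weighted by reads it was 1.12 points (exact permutation p = 0.340), beyond that interval, and it fell below 0 without the first L-DOPA + R rat (-0.0864 points) or the third L-DOPA rat (-0.0302 points). The same held for the 6 classes made by level and CpG density, whose exact permutation p-values ran from 0.391 to 0.816. CpG-dense sites under 20%, the typical state of an active promoter, read 1.65% ± 0.0604 in control and 1.66% ± 0.0530 in lesioned striata (SD, n = 9). CpG-sparse sites over 80%, the typical state of the rest of the genome, read 91.6% ± 0.562 and 91.6% ± 0.478. Over the 20 chromosomes the mean difference lay between 0.0410 and 0.149 points, and the smallest exact permutation p was 0.605 (adjusted p = 0.887).

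At single CpGs the 2 sides were close as well. The median size of the mean difference was 1.31 points, 89.3% of CpGs lay within 5 points, and 35 of 292497 reached 20 points. The logistic test of the side with the rat as block called 23 CpGs at an adjusted p (q) under 0.01, which is 0.00786% of those tested. Of these, 21 were less methylated on the lesioned side (0.00718%) and 2 were more methylated (0.000684%). At an unadjusted p under 0.05 there were 17718 CpGs (6.06%), and at a p under 0.001 there were 490 lower and 465 higher CpGs, so the lean towards lower methylation was found among the CpGs of smallest p and not in the bulk. The calls rest on the chi-square reading of the logistic model, as in the study's own procedure, which also made calls on simulated counts without a side difference, so some of the called CpGs may be false calls. Without the rat as block 9 CpGs were called (8 lower, 1 higher), all 9 among the 23. The strands of a CpG were merged after the minimum of reads, so that the striata of a rat could hold reads of different strands, which was the case in 1 or more rats at 11 of the 23 (47.8%) and at 28.3% of all CpGs. With only strands that had 10 reads in both striata of the rat, 20 CpGs were called, all of them among the 23 (18 lower, 2 higher). Those lost were chr10:18704879 (-18.9 points merged, -17.03 points in that reading, q = 0.0117), chr8:91630363 (-15.9 and -15.9 points, q = 0.0170) and chr8:96983500 (-13.7 and -12.7 points, q = 0.0117), whose differences stayed close in size. The F reading of the same model called 0 CpGs (7240 at an unadjusted p under 0.05), and limma on the percentages called 0 (13874 at an unadjusted p under 0.05, smallest q 0.0635).

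**Figure D1:**
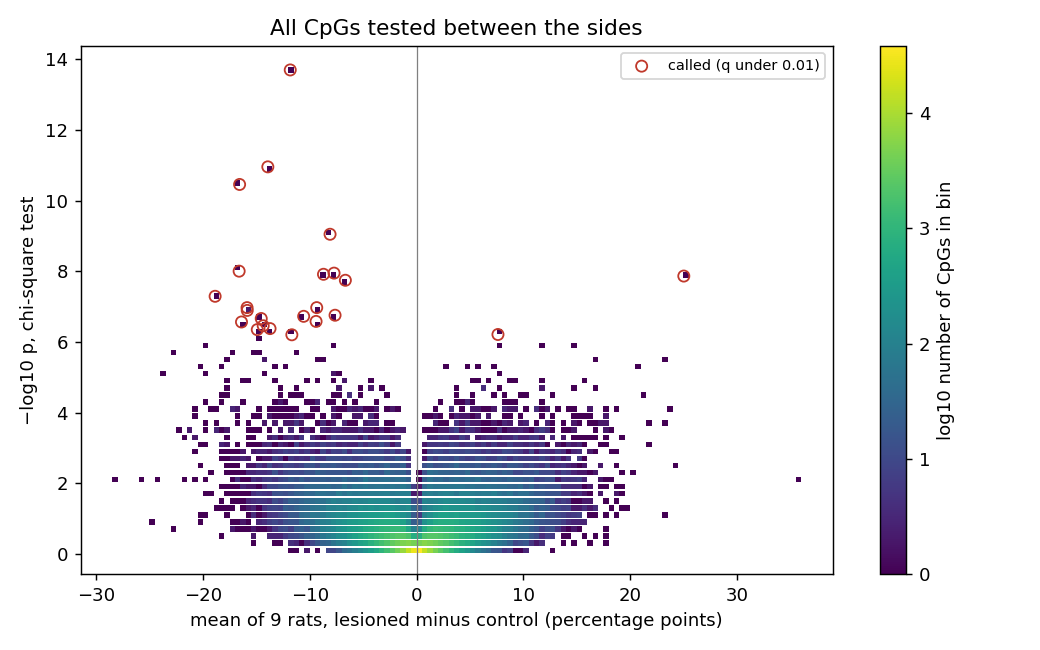
Each square is a bin of CpGs, placed by the mean side difference over 9 rats (percentage points, horizontal axis) and by −log10 of the chi-square p (vertical axis), and coloured by the log10 number of CpGs. Red circles mark the 23 called CpGs, of which 21 lie left of 0 and 2 right of it, above a body of CpGs that is close to symmetric.

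The CpG of smallest p lay at chr10:102044638 of the rat genome build rn6. It lay 46 to 50 bases past another cytosine of its strand, where the last bases of a 50-base read fall. It read 91.5, 95.3 and 97.7% (lowest, median and highest of 9) in control striata and 74.1, 81.7 and 91.6% in lesioned striata. Lesioned striata were lower in every rat, while the highest lesioned value just reached the lowest control value. The difference was -11.8 points ± 5.94 (SD over 9 rats), with a median of 108.5 reads per striatum (q = 5.8e-09). Both DNA strands, which give separate reads, showed it, with -13.6 points on the forward strand in the 8 rats with enough reads and -11.3 points on the reverse strand in 9 rats.

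Next in rank was chr20:6016585, at which the groups did not overlap. Control striata read 88.2, 92.3 and 97.4% and lesioned striata 69.1, 79.4 and 85.2% (lowest, median, highest). The difference of -13.9 points ± 5.16 had the smallest SD of the 3 leading sites and ran from -8.61 to -23.5 points in single rats (q = 1.6e-06). The nearest CpG assigned to a gene, in the part of the study's tables held here, was 87662 bases away, at Pnpla1, a member of the patatin-like phospholipase family. Among the called CpGs this was the shortest such distance, and CpGs in the part not held could lie nearer to any of them. At chr20:45871095 control striata read 80.8, 95.7 and 100% and lesioned striata 60, 80.8 and 93.3%, a difference of -16.6 points ± 7.99 (q = 3.4e-06). Here 1 L-DOPA + R rat had low methylation on both sides (80.8 and 60%), and its difference was -20.8 points.

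The sites of rank 4 to 7 lay on chromosomes 6, 15 and 5. At chr6:133791734, read deeply with a median of 179.5 reads, control striata held 89.2, 94.4 and 95.5% and lesioned striata 82.0, 85.5 and 89.7% (-8.10 points ± 3.62, q = 6.5e-05). At chr15:105684276 the difference was larger, from 80.8, 88.2 and 93.6% to 55.3, 70.9 and 83.5% (-16.6 points ± 8.64, q = 0.000499). Lesioned and control striata overlapped at both sites, although the lesioned one was the lower of the pair in all 9 rats.

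On chromosome 5, a pair of called CpGs 8 bases apart shared their reads. Control striata at chr5:72208180 were almost fully methylated, at 96.6, 99.2 and 100%, and lesioned striata read 85.7, 90.2 and 96.2%, without overlap (-7.72 points ± 4.40, q = 0.000499). At chr5:72208172 the values were 92.3, 96.9 and 100% against 83.6, 88.7 and 94.3% (-8.71 points ± 3.67, q = 0.000499). The smallest of the 9 differences at chr5:72208180 was -0.721 points, in an L-DOPA + R rat.

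**Figure D2:**
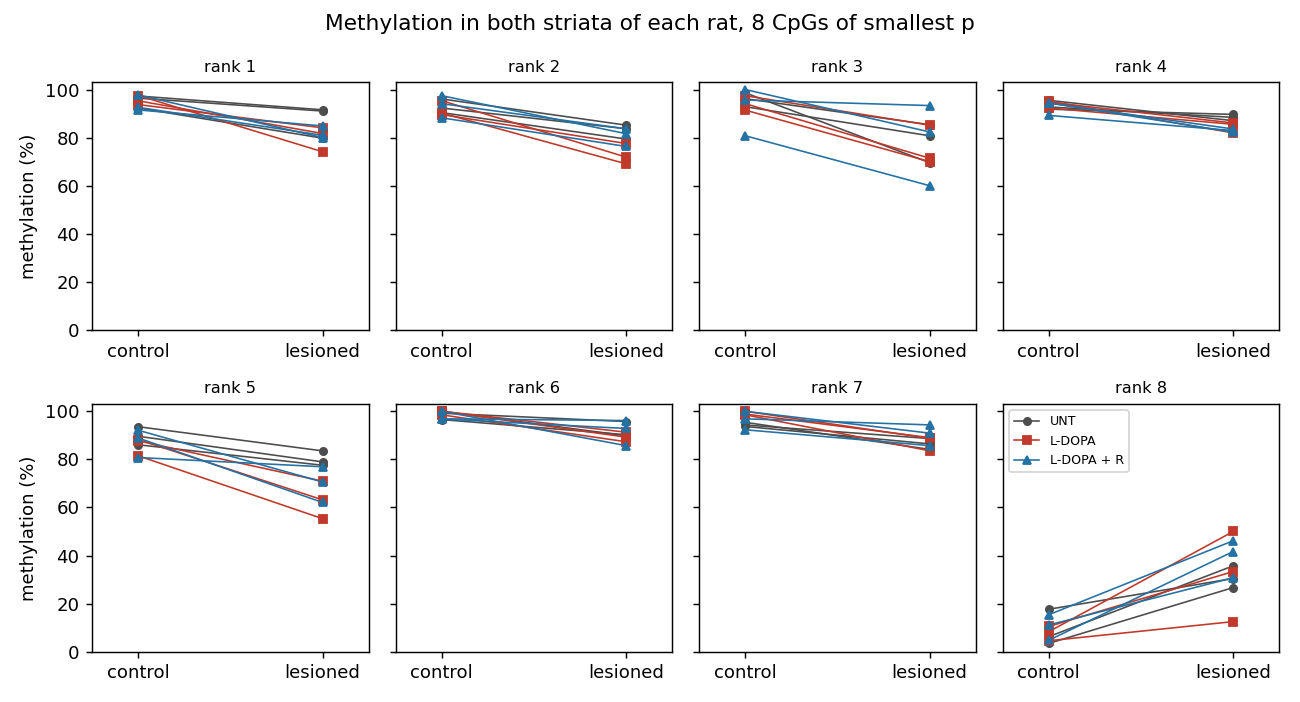
Methylation (%, vertical axis) in the control and the lesioned striatum of each rat at the 8 CpGs of smallest p, with 1 line per rat (grey circles UNT, red squares L-DOPA, blue triangles L-DOPA + R). All 9 lines fall at ranks 1 to 7 and all 9 rise at rank 8, the CpG at chr3:2506318.

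The largest difference among the called CpGs was a gain. At chr3:2506318, control striata read 3.45, 8.33 and 17.6% and lesioned striata 12.5, 33.3 and 50%. The lesioned striatum was higher in every rat, by 7.95 to 41.7 points, and 1 lesioned value (an L-DOPA rat, 12.5%) fell within the control range. The mean gain was 25.03 points ± 10.9 (SD over 9 rats, q = 0.000499), on a shallow site with 12 to 32 reads per striatum. It was close to even across treatments, with means of 21.8 (UNT), 24.1 (L-DOPA) and 29.1 points (L-DOPA + R). The nearest gene-assigned CpG in the part held belonged to Abca2, a lipid transporter of the brain, 149019 bases away.

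The remaining 4 of the 12 sites of smallest p were all lower on the lesioned side. At chr6:133776580, 15154 bases from the called site described above on that chromosome and the deepest of the list (median 206 reads), methylation went from 90.5, 93.0 and 95.8% to 79.7, 88.5 and 90.7% (-6.66 points ± 4.56, q = 0.000584). At chr10:18704879 it went from 85, 88.4 and 96.2% to 55, 70 and 85% (-18.9 points ± 10.6, q = 0.00149), with no difference in 1 L-DOPA rat. At chr8:91630363 the groups did not overlap, with 86.7, 91.4 and 97.4% against 60, 76.7 and 85.9% (-15.9 points ± 9.69, q = 0.00261). At chr7:2901389 control striata read 94.7, 100 and 100% and lesioned striata 75, 91.5 and 95.5% (-9.34 points ± 6.48, q = 0.00261).

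Ranks 13 to 23 added 10 lower CpGs and 1 higher CpG, the latter at chr18:30642751 (+7.62 points ± 6.00, q = 0.00799), where 2 of 9 rats went the other way. The nearest gene-assigned CpG there, in the part held, was 167325 bases away at Pcdhb9, a protocadherin of the clustered beta family that takes part in cell adhesion between neurons. The only called site with intermediate methylation in control tissue on the lower side was chr11:31512733, which went from 38.7, 53.6 and 58.2% to 22.2, 35.6 and 43.0% (-15.9 points ± 8.40, q = 0.00289). Just inside the threshold, rank 21 (chr7:135423894) had a difference of -14.9 points at q = 0.00625 and ranks 22 and 23 had q = 0.00799. Just outside it, chr20:4564861 differed by -14.8 points (q = 0.0106), chr6:52463547 by -19.8 points (q = 0.0119) and chr18:73219229 by -7.62 points (q = 0.0119).

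**Figure D3:**
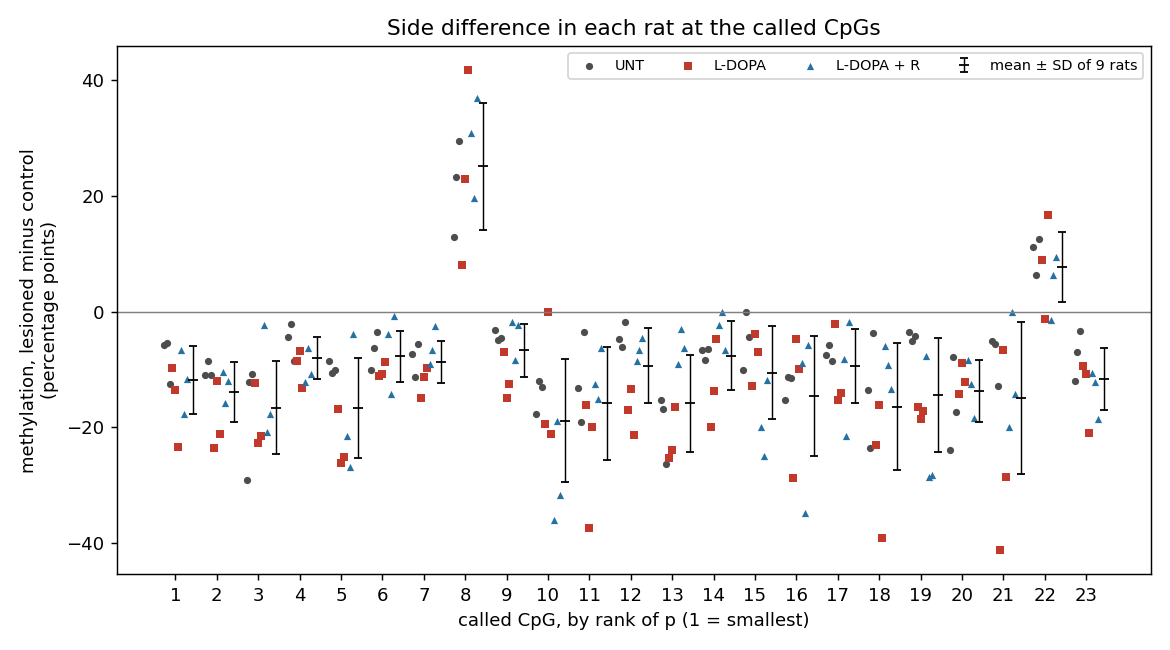
Lesioned minus control methylation (percentage points, vertical axis) in each of 9 rats at the 23 called CpGs, ordered by rank of p (horizontal axis), with the mean ± SD of 9 rats beside the points. Points lie below 0 in all or 8 of 9 rats at the 21 lower CpGs, and above 0 at rank 8 (9 of 9 rats) and rank 22 (7 of 9 rats).

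The called CpGs are described here beside all CpGs tested. Depth, the sign in each rat and the reads of each strand enter the test itself, so those values follow in part from the choice of CpGs and add no support. Of the 23, 17 (73.9%) had a mean methylation over 80% and none under 20%, against 36.7% and 39.1% of all CpGs tested. None was CpG-dense (5 or more other shared CpGs within 100 bases), against 19.4% of all. Their median depth was 52 reads per striatum against 33, and lay on 13 chromosomes. Of the 23, 1 (4.35%) lay 46 to 50 bases past another cytosine of its strand, against 13.9% of all CpGs tested. The last bases of a 50-base read fall there, and this 1 was the CpG of smallest p, chr10:102044638. Of the called CpGs, 5 had enough reads on both strands in 5 or more rats, and 5 of 5 had the same sign on both. The sign was the same in all 9 rats at 19 of the 23 (18 lower, 1 higher). Over all tested CpGs, 648 (0.222%) had the same sign in all 9 rats, with 323 lower (0.11%) and 325 higher, and here the directions were balanced. The 9 lesioned and 9 control striata did not overlap at 10 CpGs (0.00342%), 7 lower and 3 higher, of which 3 were called.

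Around the 21 lower CpGs, 23 uncalled CpGs lay within 50 bases, and 23 of 23 were lower on the lesioned side, with a median of -9.39 points. Of these, 16 had an unadjusted p under 0.05, against 6.06% of all CpGs. CpGs within 50 bases are mostly read on the same molecules, so they add little that is independent. Between 51 and 100 bases 2 of 5 CpGs were lower (median 0.339 points), and between 101 and 300 bases 3 of 4 (median -10.2 points). Between 301 and 1000 bases 1 of 8 was lower (median 1.27 points), and between 1001 and 5000 bases 23 of 38 (median -0.782 points). Around the 2 higher CpGs, 3 CpGs lay within 50 bases and all were higher, with a median of 2.49 points and none at an unadjusted p under 0.05. The neighbour of chr3:2506318 differed by 1.84 points, where the called CpG itself differed by 25.03 points.

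Reads were also summed over tiles of 1000 bases with at least 3 shared CpGs. A read that covered several CpGs counted once for each of them. The counts of a tile are therefore not all independent, and its CpGs can share molecules. Beyond the overdispersion correction the test did not allow for this. Of 38757 tiles, 11 were called (0.0284%), 10 lower (0.0258%) and 1 higher (0.00258%) on the lesioned side. The F reading called 0 tiles (1405 at an unadjusted p under 0.05), 1 was called without the rat as block and 5 with a minimum of 20 reads. Leaving out 1 rat gave between 2 tiles (without the second L-DOPA + R rat) and 28 tiles (without the first). With only strands read in both striata of the rat, 10 tiles were called.

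The tile of smallest p, chr5:72208001-72209000, held 4 CpGs over 43 bases with 2 of the called CpGs. It read 91.4, 95.3 and 98.4% in control and 83.3, 85.9 and 90.1% in lesioned striata (lowest, median, highest), without overlap between the sides. The difference was -8.68 points ± 2.88 (SD over 9 rats, q = 3.3e-11), and its CpGs differed by -7.72 to -9.25 points.

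The single tile with a gain, chr5:152533001-152534000, held 3 CpGs over 32 bases, none of them called alone. Control striata read 63.9, 71.2 and 76.2% and lesioned striata 74.0, 78.6 and 86.3%, with higher values on the lesioned side in 9 of 9 rats (+9.38 points ± 5.21, q = 0.000646). Each group reached into the range of the other.

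The other 4 tiles among the 6 of smallest p were lower on the lesioned side in 9 of 9 rats. In chr10:102044001-102045000, which holds the CpG of smallest p, the 4 CpGs spanned 299 bases and all were lower (-10.4 points ± 6.69, q = 0.0011). The tile at chr3:147668001-147669000 went from 72.0% ± 5.80 to 63.6% ± 5.58 (SD, 9 rats each, q = 0.00117), and chr5:74194001-74195000 from 92.8% ± 0.943 to 83.8% ± 5.85 (q = 0.00126). In that last tile the control striata lay within 91.9 to 94.4% and all 9 lesioned striata lay below that range, at 74.3 to 91.1%. The largest difference was in chr2:205925001-205926000, where 5 of 5 CpGs were lower and the tile went from 83.5% ± 3.61 to 68.1% ± 9.86 (-15.3 points ± 9.63, q = 0.00204). By treatment it was -7.31 points (UNT), -24.7 points (L-DOPA) and -13.9 points (L-DOPA + R). The side by treatment term there had the next smallest unadjusted chi-square p, 0.0153.

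**Figure D4:**
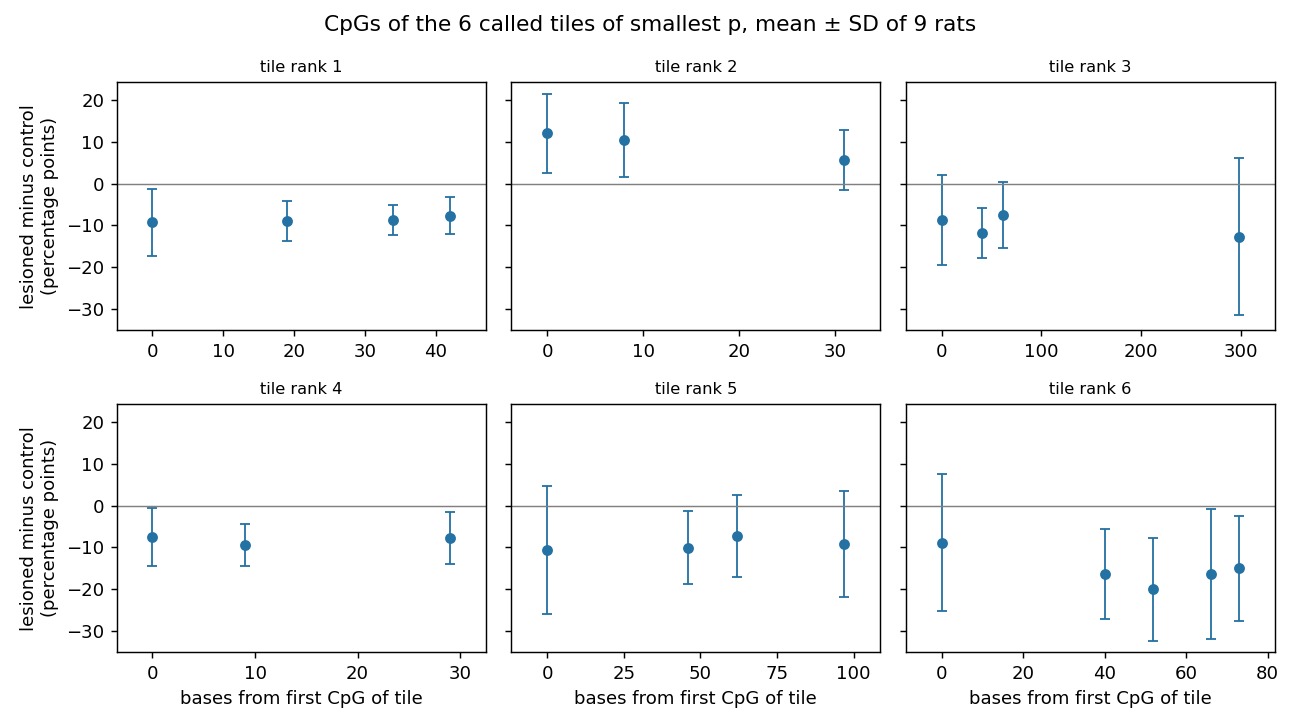
Side difference (percentage points, mean ± SD of 9 rats, vertical axis) of each CpG in the 6 called tiles of smallest p, against the distance in bases from the first CpG of the tile (horizontal axis). The CpGs of a tile share their direction, with all means below 0 in 5 tiles and above 0 in the tile of rank 2.

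One called tile held a CpG that the study's tables, as far as they were held, assign to a gene, and it is named here after its value was seen. The tile chr8:46947001-46948000 contains the listed CpG of Grik4, which encodes a kainate-type glutamate receptor subunit. Over its 4 CpGs, which span 49 bases, control striata read 48.9, 58.8 and 73.1% and lesioned striata 37.1, 50 and 66.7%. The lesioned striatum was lower in 9 of 9 rats although the groups overlapped widely (-9.71 points ± 4.84, q = 0.00762). With only strands read in both striata of the rat, the tile differed by -8.10 points ± 6.87 and was not called (q = 0.0282). At 2 of the 4 CpGs the lesioned striatum was lower in 9 and in 8 rats (-12.8 points ± 9.59 and -14.2 points ± 11.4), while another differed by 1.30 points ± 21.8. The listed Grik4 CpG itself, chr8:46947939, differed by -12.8 points ± 17.9 and was not called (q = 1). On its forward strand, with enough reads in all 9 rats, it differed by -2.30 points, and on the reverse strand by -16.8 points in 4 rats. The one called tile with low methylation, chr8:60123001-60124000 with 8 CpGs, went from 11.1% ± 3.27 to 5.78% ± 2.96 (q = 0.00213).

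Large mean differences were also found among CpGs that were not called. Among CpGs with an unadjusted p under 0.0001 and the same sign in 9 rats, called ones included, 60 were lower and 26 higher. The lowest differences were -20.1 points ± 12.4 at chr2:205925858 (q = 0.0362), 12 bases from a called CpG, and -19.8 points ± 15.1 at chr3:54251671 (q = 0.0447). The latter lay 7013 bases from a CpG assigned to B3galt1, a galactosyltransferase of glycan synthesis, and was read with as few as 10 reads. Differences of -19.4 points ± 7.54 at chr9:15736989, -18.4 points ± 10.6 at chr14:86864906, -18.04 points ± 13.05 at chr8:84387264 and -17.7 points ± 10.9 at chr8:128783292 followed. Of these 6, only chr8:128783292 had groups that did not overlap, with 62.5, 68.2 and 86.2% in control and 40, 56.6 and 60% in lesioned striata. Apart from chr3:2506318, the largest gains were 23.8 points ± 17.5 at chr12:27675687, 23.0 points ± 10.1 at chr14:9087693, 21.2 points ± 14.5 at chr1:3677683, 20.6 points ± 13.2 at chr13:101559858 and 17.6 points ± 14.7 at chr9:71567857, with q from 0.0269 to 0.129.

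The called differences were then read rat by rat. At the 21 lower CpGs, the median difference ran from -7.84 to -10.2 points in UNT rats, from -13.3 to -17.1 points in L-DOPA rats and from -8.87 to -14.3 points in L-DOPA + R rats. In every rat 20 or 21 of the 21 were lower on the lesioned side. These values chose the CpGs and are given as a description. To read CpGs in a rat that had not chosen them, the calls were repeated with 1 rat left out. Between 7 CpGs (without the first L-DOPA rat) and 27 CpGs (without the third L-DOPA + R rat) were then called, and 69.6 to 100% of them had the same sign in the rat left out. Over the 9 rats this was 125 of 159 readings (78.6%), which share most of their CpGs. In the rat left out, 39.99 to 49.9% of all CpGs over 80% were lower on the lesioned side. The median difference at the lower CpGs was smaller in a left-out UNT rat (-3.67 to -5.38 points) than in the 8 rats that chose them (-12.8 to -14.3 points). The same held for a left-out L-DOPA + R rat (-3.85 to -7.55 points, against -12.2 to -14.4 points). In a left-out L-DOPA rat it was -11.0 to -13.2 points, against -12.4 to -13.2 points.

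**Figure D5:**
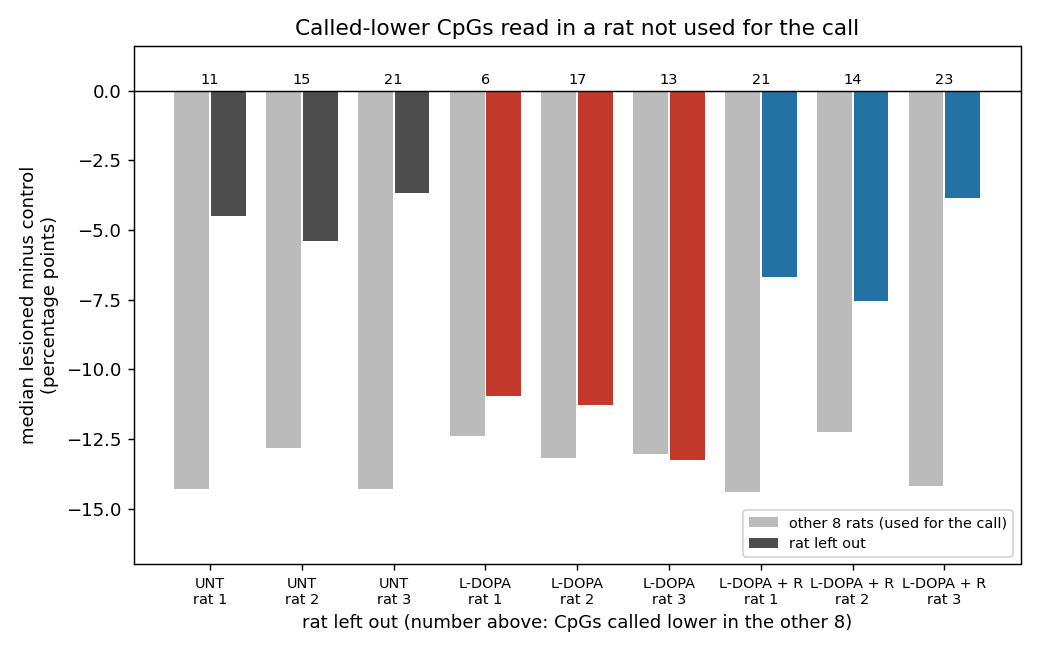
Median lesioned minus control methylation (percentage points, vertical axis) at the CpGs called lower in 8 rats, in those 8 rats (light grey bars) and in the rat left out (dark grey UNT, red L-DOPA, blue L-DOPA + R), for each rat left out (horizontal axis). All 9 left-out medians lie below 0, between -3.67 and -13.2 points.

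Leaving out a whole treatment gave fewer or different calls. Without UNT rats 18 CpGs were called, of which 7 were among the 23, and 12 of the 18 had the same sign in the mean of the 3 UNT rats. Without L-DOPA rats 2 CpGs were called, both with the same sign in the L-DOPA rats. Without L-DOPA + R rats 16 were called, 7 of them among the 23, and 12 of 16 kept their sign in the L-DOPA + R rats. All 3 left-out rats had the sign of the call at 9 of 18, 1 of 2 and 8 of 16 CpGs, while 15.3 to 17.3% of all CpGs had 3 like signs in those rats.

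Whether the side difference depended on treatment was tested with a side by treatment term. It was called at 12 of 292497 CpGs (0.0041%) by the chi-square reading and at 0 by the F reading (2963 at an unadjusted p under 0.05). With a minimum of 20 reads it was called at 5, and with 1 rat left out at 6 to 17. None of the 12 was called for the side itself. The mean differences of the UNT and the L-DOPA + R rats had opposite signs at 9 of the 12 and like signs at 3. At chr18:24760589, which had the tightest replicates, the difference was -6.49 points ± 2.41 in the UNT rats, 17.97 points ± 1.46 under L-DOPA and -24.0 points ± 4.31 with riluzole added (SD, 3 rats each, q = 0.00632). With only strands that had 10 reads in both striata of the rat, 0 CpGs were called for this term (18239 at an unadjusted p under 0.05), where 10 of the 12 could be fitted and chr17:17906971 and chr10:14823112 could not. At 9 of the 12, the striata of 1 or more rats held reads of different strands, against 28.3% of all CpGs, and 7 of the 12 lay 46 to 50 bases past another cytosine of their strand, against 13.9%. At chr8:46205401, where the strands were unlike in 6 rats, the merged difference was -28.3 points, while it was -1.68 points on the forward strand (3 rats) and 0.0845 points on the reverse strand (9 rats). At chr1:104320343 the merged difference was -17.4 points against -0.810 (6 rats) and 1.46 points (8 rats) on the strands, and at chr17:22341073 it was -15.4 against 0.675 (7 rats) and 1.20 points (8 rats). At chr18:24760589, chr5:159255987 and chr1:73751679 the strands were alike in every rat, so that the differences were the same and only the adjusted p moved, to 0.0248, 0.0237 and 0.0237. At chr5:159255987 the differences were -9.11 points ± 8.93 (UNT), -3.63 points ± 2.87 (L-DOPA) and 19.9 points ± 10.7 (L-DOPA + R), and at chr1:73751679 they were -11.8 points ± 5.37, 14.8 points ± 7.59 and 23.3 points ± 14.1. At chr18:71891604, where strands were unlike in 2 rats, the differences on like strands were -24.2, -8.18 and 36.3 points (q = 0.0372) against -24.2, -8.18 and 37.5 points merged. At chr3:15431240 they were 13.2, 6.04 and -12.0 points (q = 0.0730) against 13.2, 7.05 and -12.2 points. At the 23 called CpGs the interaction had an unadjusted p under 0.05 at 4, against 6.36% of all CpGs.

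Within single rats few CpGs separated the 2 striata. Fisher's exact test on the reads of each pair, which compares those libraries and not the conditions, called 0 to 15 CpGs per rat, 54 in all, with 24 lower and 30 higher on the lesioned side. They fell on 49 CpGs, of which 45 were called in 1 rat only and none in more than 2 rats in the same direction. None of the 23 CpGs above was among them. Of the 54 calls, 55.6% lay 46 to 50 bases past another cytosine, and with only strands read in both striata of the rat 19 calls were made. With a minimum of 20 reads per cytosine 150 calls were made. Beyond counting error, the 2 striata of a rat differed by 4.89 points (root mean square over CpGs, median of 9 pairs, range 3.90 to 6.65). Striata of different rats on the same treatment, one of each side, differed by 5.34 points (4.60 to 7.45). Those of different treatments differed by 6.40 points (5.49 to 8.36). The ranges overlapped, and in the L-DOPA + R rats the own pairs differed by 5.98 to 6.65 points. Counting error made up 66.3% of the squared difference within a rat.

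The genes that the study's text names for its treatment comparisons were each read at 1 listed CpG. Where several were listed, it was that of smallest p in the study's list among the CpGs tested here. The lists were taken in the order L-DOPA against UNT, L-DOPA + R against UNT and L-DOPA + R against L-DOPA. Of 38 such genes, 23 had a listed CpG present in all 18 striata (Commd1 and Zrsr1 share one). Counted by gene, so that the shared CpG entered for both genes, the CpG was lower on the lesioned side at 16 and higher at 7. The lower ones included Pigx at -0.00146 points. The median was -0.909 points, where 47.3% of all CpGs tested were lower and their median was 0 points. None of the 23 was called by the chi-square test, and 0 of 23 had an unadjusted p under 0.05, against 6.06% of all CpGs. The study chose these CpGs on the same samples for another comparison.

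Among genes of the synapse, the listed CpG of Nrxn2, a presynaptic adhesion molecule, read 95.7% ± 4.68 in control and 95.5% ± 4.79 in lesioned striata (SD, 9 rats each). At Nrg1, which encodes neuregulin 1, the difference was 1.71 points ± 9.91, and at Synpo, an actin-binding protein of dendritic spines, 1.05 points ± 9.21. At Reln, the secreted glycoprotein reelin, it was -2.62 points ± 31.5, and at Dab1, its intracellular adaptor, 3.28 points ± 8.41. The SD exceeded the mean difference at each of these genes.

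Among glutamate receptor genes, the metabotropic receptors Grm4 and Grm8 differed by -0.298 points ± 16.5 and -2.34 points ± 10.1, and Grm4 by 3.31 points ± 17.7 with only strands read in both striata of the rat. Among calcium channel genes, the pore-forming subunits Cacna1a and Cacna1b differed by 1.74 points ± 9.52 and -0.909 points ± 9.15. The auxiliary subunits Cacng4 and Cacng8, which also regulate AMPA receptors, differed by -3.03 points ± 10.3 and 2.38 points ± 4.66. Each SD exceeded its mean difference.

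Among signalling genes, Adcy7, an adenylate cyclase, went from 40.4% ± 13.1 to 34.3% ± 14.7 (-6.17 points ± 9.27, lower in 7 of 9 rats), and Pde10a, the cyclic nucleotide phosphodiesterase of striatal projection neurons, from 40.6% ± 14.3 to 37.4% ± 16.9 (-3.24 points ± 7.498). With only strands read in both striata of the rat, Pde10a differed by 0.447 points ± 7.15. Camk2b, a subunit of calcium/calmodulin-dependent kinase II, differed by 0.538 points ± 9.12, and Ncs1, a neuronal calcium sensor, by -0.316 points ± 0.789 at 2.39% in control tissue. Robo3, an axon guidance receptor, differed by -7.32 points ± 13.6 and was lower in 6 of 9 rats, and by -3.31 points ± 8.35 with only strands read in both striata. The remaining genes of the 23 (Ptger3, Evi5, Pigx, Commd1, Zrsr1 and Tiam1) differed by -2.83 to 0.107 points.

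The full lists for 2 of the treatment comparisons were read in the same way, while the list for L-DOPA + R against UNT, which gave the CpGs of Camk2b, Nrg1, Synpo, Cacna1b, Cacng4, Cacng8, Pigx, Adcy7 and Tiam1, was held only in part and was not read as a whole. Of the CpGs listed for L-DOPA against UNT, 962 were present in all 18 striata, 0 were called between the sides by the chi-square test and 63 (6.55%) had an unadjusted p under 0.05, against 6.06% of all CpGs. Of those listed for L-DOPA + R against L-DOPA, 160 were present, 0 were called and 10 (6.25%) had an unadjusted p under 0.05.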

How the data were processed

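Genomic DNA of 18 striata was processed by RRBS, with up to 6 samples pooled per bisulfite reaction, and the authors trimmed reads with Trim Galore 0.4.0 and mapped them to rn6 with Bismark (versions from the submitters' processing notes). The deposited files list, for each cytosine, the percent methylation and the read counts that the authors made from the trimmed and mapped reads. The counts of methylated reads used here were computed from that percentage and the read count, and rounded to whole reads. The minimum of 10 reads per cytosine, the chi-square test with overdispersion correction and q under 0.01 follow the study's methods.

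Both strands of a CpG were merged after the minimum of reads, so that a strand could count in 1 striatum of a rat and not in the other (an alternative without such strands was added after seeing the data), and CpGs of chromosomes 1 to 20 present in all 18 striata were kept. A logistic model with the rat as block was fitted to each CpG in Python 3.11.15 with NumPy 2.4.6. Overdispersion was taken from the Pearson residuals (at least 1), and the side was tested by the likelihood ratio divided by it, with Benjamini-Hochberg adjustment over all CpGs. A CpG with fewer than 3 informative rats (42512 CpGs) was given a p of 1. The F reading refers the same statistic to an F distribution with the residual degrees of freedom. Percentages were also tested with limma 3.58.1 (R 4.3.3), with the rat as block. On simulated counts the chi-square reading recovered most of the differences built in, while the F reading recovered none. The differences built in were falls larger than any at the called CpGs and were tested among fewer CpGs. This recovery therefore does not measure the power for the differences found here. With no difference built in and spread between striata near the mean of the files, the chi-square reading still called CpGs and tiles for the side and CpGs for the side by treatment term, fewer in each case than in the files. Spread that varies from CpG to CpG was not simulated, so how many of the calls are false is not known. Single values were tested by exact sign flips, with a smallest possible p of 0.00391. Depth limits single sites: at a median of 34 reads, counting error made up 66.3% of the squared difference between the striata of a rat. Intervals cover the spread between rats.

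Same-numbered striata come from 1 rat by the study's design. Beside the check on the 522 CpGs, the deviations of the striata of a rat from the group means correlated with r from 0.0332 to 0.111 across CpGs, which are not independent replicates.

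Sites were named by rule: the 12 called CpGs of smallest p, the 6 lowest and 6 highest differences among those with p under 0.0001 and 1 sign in 9 rats, the listed CpG of each gene in the study's text (1 gene is not reported here), and the 6 called tiles of smallest p. Outside the rule, and after their values were seen, the CpGs at chr18:30642751, chr11:31512733, chr18:24760589, chr8:46205401, chr1:104320343, chr17:22341073, chr17:17906971, chr10:14823112, chr5:159255987, chr1:73751679, chr18:71891604, chr3:15431240 and chr8:96983500, those of ranks 21 to 26 and the tiles chr8:46947001-46948000 and chr8:60123001-60124000 were named. The comparison and the lists were chosen with earlier results of these data known. An rn6 genome or annotation was not used here, so genes are named only through CpGs that the study's tables list, no sequence is shown, and gene lists by pathway were not analysed. A further list of the study, for L-DOPA + R against UNT, was held only in part and with some positions rounded. Its positions that ended in 00 were left out, and the others were used for the genes named in the text and for the distance to the nearest gene-assigned CpG.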

Additional observations from a re-analysis of the deposited data

Results flagged for a closer look

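At 12 CpGs the side by treatment term was called by the chi-square reading, where the F reading called 0 and where 0 were called with only strands read in both striata of the rat (18239 at an unadjusted p under 0.05). In that reading 10 of the 12 could be fitted, 3 had the same differences as before (adjusted p 0.0237 to 0.0248), and chr18:71891604 and chr3:15431240 kept differences of similar size (adjusted p 0.0372 and 0.0730). The chi-square reading also made such calls on simulated counts without a difference. At 9 of the 12, striata of 1 rat or more held reads of different strands. The adjusted p of the side by treatment term was 0.000154 at chr17:17906971 and 0.000154 at chr17:22341073. It was 0.00273 at chr18:71891604, chr8:46205401 and chr3:15431240 and 0.00274 at chr11:70454357. It was 0.00414 at chr5:159255987, 0.0046 at chr2:221536698 and chr10:14823112, 0.00483 at chr1:73751679, 0.00503 at chr1:104320343 and 0.00632 at chr18:24760589. At chr17:17906971 the L-DOPA + R mean rested on 1 rat, with differences of 100, 6.67 and 26.2 points in its 3 rats.

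The spike-in controls went opposite ways in different treatments, which was not tested. A library held 3897 to 19742 calls on the unmethylated spike-in and 5267 to 13051 on the methylated one. Differences this small are open to counting error, which was not assessed. On the unmethylated spike-in the lesioned library read lower in all 3 UNT pairs (mean -0.259 points) and higher in all 3 L-DOPA + R pairs (mean 0.0516 points). On the methylated spike-in it read higher in all 3 L-DOPA pairs (mean 0.100 points) and lower in all 3 L-DOPA + R pairs (mean -0.232 points).

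Among 63 sets of 9 values, 5 held a value far from the other 8, where about 1 in 20 sets would by chance. At chr8:91630363, a called CpG, the difference was -37.3 points in 1 L-DOPA rat and -19.8 points or nearer to 0 in the others. At the listed CpG of Reln it was -76.9 points in 1 L-DOPA + R rat, with -16.2 points next, and the striata of 5 rats held reads of different strands there. At Pigx and Adcy7 the same L-DOPA rat stood apart, with -21.2 points (next -0.127) and -27.7 points (next -9.97). At Tiam1 it was -30.3 points in 1 L-DOPA + R rat, with 0 next.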

How the results depend on the processing

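The number of CpGs called between the sides depended on the test: 23 became 12 with 20 reads per cytosine (77879 CpGs tested, 11 of the calls shared), 90 with no overdispersion correction, 9 without the rat pairing as a block, 0 by the F reading and 0 by limma. Leaving out 1 rat gave 7 to 27 calls, with the lowest counts without L-DOPA rat 1 (7), UNT rat 1 (12), L-DOPA rat 3 (15) and L-DOPA + R rat 2 (15). Without all L-DOPA rats, chosen after seeing the data, 2 were called. Each strand on its own, 8 degrees of freedom throughout, Storey's q, an upper limit on coverage, at least 7 rats and removal of cytosines 46 to 50 bases past another gave 17 to 29. The 11 tiles became 5 with 20 reads, 0 by the F reading, 1 without the rat pairing as a block and 2 to 28 with 1 rat left out, with the lowest without L-DOPA + R rat 2 and the highest without L-DOPA + R rat 1. The 12 CpGs of the side by treatment test became 5 with 20 reads, 0 by the F reading and 6 to 17 with 1 rat left out. With only strands that had 10 reads in both striata of the rat, chosen after seeing the data, the 12 became 0 (10 could be fitted, and 3 of these had the same differences with only the adjusted p moved) and the 54 calls within single rats became 19, and those 54 became 150 with 20 reads. The other results then were 20 CpGs, 10 tiles and a mean difference of 0.0841 points. The mean difference over all CpGs ranged from -0.0864 to 0.203 points with 1 rat left out, and was 1.12 points when CpGs were weighted by reads (exact permutation p = 0.340). Beyond the strand alternative, the cause of these shifts was not tested.

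Of the 12 called CpGs of smallest p, 0 remained called by the F reading, 9 without the block and 6 of 7 with 20 reads. With 1 rat left out 6 to 12 remained, the fewest without L-DOPA rat 1 (6), L-DOPA rat 3 (8) and UNT rat 1 (8). Without the block, the listed CpGs of Camk2b (-1.48 points), Pigx (0.658) and Ptger3 (-1.02) changed sign, as did Grm4 (3.31 points) and Pde10a (0.447) with only strands read in both striata, where Reln and Pigx could not be fitted. With 1 rat left out, the difference at listed CpGs that changed sign ranged from -1.38 to 1.91 points at Camk2b, -1.54 to 1.10 at Nrxn2, -7.68 to 6.67 at Reln, -4.85 to 2.05 at Grm4, -0.234 to 3.38 at Nrg1, -0.966 to 2.26 at Synpo, -0.270 to 3.36 at Cacna1a, -2.93 to 1.07 at Cacna1b, -0.967 to 2.65 at Pigx, -5.12 to 0.0528 at Commd1, -0.927 to 1.44 at Ptger3 and -2.91 to 2.27 at Tiam1. None of these was called under any of them.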
